A study of Homo sapiens with 12 samples.

Results

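Entry into mitosis, assembly of the spindle, attachment of chromosomes and separation of the daughter cells were followed here through 47 genes that encode the proteins of these steps. The genes were chosen by name, and every probe set annotated to exactly 1 of them was taken, which gave 87 of the 54675 probe sets on the array. Of these, 77 had a log2 value above 4 on at least 3 arrays, and they covered 46 of the 47 genes, among 11154 genes measured in all. INCENP, the scaffold of the chromosomal passenger complex, was the gene not measured at this limit. Where a gene had several probe sets past the limit, as 22 of the 46 did, the brightest on average was used for it.

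The samples were cultures of HK-2, an immortalized line of human renal proximal tubular epithelial cells, grown in defined medium with EGF, hydrocortisone, insulin, transferrin and selenite. The 4 groups of 3 arrays were CsA for 12 h, control for 12 h, CsA for 48 h and control for 48 h. CsA is read here as cyclosporin A, an immunosuppressant that inhibits calcineurin and is known for its toxicity to the kidney. Controls received the vehicle, all cultures were treated close to confluence, and the labels call the replicates biological. Neither the dose nor the nature of the vehicle is given in the sources used here.

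Transcripts of mitotic genes are known to be scarce in resting cells and to accumulate as cells pass through G2 towards division. Many of these promoters carry a cell cycle homology region (CHR), bound by MuvB complexes that hold the genes off in resting cells and, together with MYBL2 and then FOXM1, turn them on before mitosis. Upstream of it often lie CCAAT boxes, bound by the activator NF-Y. The array reads the RNA of a whole culture, so fewer cells near mitosis and less of each RNA per cell cannot be told apart.

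Promoters of 6 of these genes are printed because they show the arrangements of the 2 motifs found in the set. Each covers 250 bases before and 50 bases after an annotated start, from RefSeq on build GRCh38.p14, and is written 5′ to 3′ on the strand of the gene. Capitals mark the CHR core TTTGAA and the NF-Y box CCAAT, each also as its reverse complement where it lies on the opposite strand. CCNB2, a B-type cyclin, at chr15:59104896-59105195 on the plus strand, had 4 boxes followed by 1 core. PLK1, the polo-like kinase, at chr16:23678639-23678938 on the plus strand, and PRC1, the crosslinker of the spindle midzone, at chr15:90994486-90994785 on the minus strand, had 1 box and 1 core each. CDC20, an activator of the anaphase-promoting complex, at chr1:43358731-43359030 on the plus strand, had 2 of each, 1 core being on the opposite strand. KIF11, the motor that pushes spindle poles apart, at chr10:92592880-92593179 on the plus strand, had both motifs on the opposite strand. CCNB1, the main B-type cyclin, at chr5:69166900-69167199 on the plus strand, had 2 boxes and no core of these letters in the window.
CCNB2: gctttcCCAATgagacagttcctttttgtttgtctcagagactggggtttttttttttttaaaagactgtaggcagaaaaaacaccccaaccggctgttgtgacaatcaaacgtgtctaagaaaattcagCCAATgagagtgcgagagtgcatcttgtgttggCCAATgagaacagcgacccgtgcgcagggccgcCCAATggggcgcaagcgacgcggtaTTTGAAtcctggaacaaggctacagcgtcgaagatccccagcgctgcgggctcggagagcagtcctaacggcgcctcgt
PLK1: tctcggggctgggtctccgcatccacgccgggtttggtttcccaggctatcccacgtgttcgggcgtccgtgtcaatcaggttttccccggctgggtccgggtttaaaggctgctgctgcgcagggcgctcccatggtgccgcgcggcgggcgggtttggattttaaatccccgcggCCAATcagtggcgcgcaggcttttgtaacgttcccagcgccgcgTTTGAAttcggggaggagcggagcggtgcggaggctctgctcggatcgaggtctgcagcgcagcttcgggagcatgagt
PRC1: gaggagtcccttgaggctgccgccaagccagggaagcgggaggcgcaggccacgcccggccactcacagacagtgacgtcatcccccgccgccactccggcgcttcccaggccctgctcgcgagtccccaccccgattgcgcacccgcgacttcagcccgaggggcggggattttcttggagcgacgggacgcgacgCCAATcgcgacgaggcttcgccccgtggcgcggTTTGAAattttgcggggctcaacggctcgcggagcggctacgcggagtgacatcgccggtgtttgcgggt
CDC20: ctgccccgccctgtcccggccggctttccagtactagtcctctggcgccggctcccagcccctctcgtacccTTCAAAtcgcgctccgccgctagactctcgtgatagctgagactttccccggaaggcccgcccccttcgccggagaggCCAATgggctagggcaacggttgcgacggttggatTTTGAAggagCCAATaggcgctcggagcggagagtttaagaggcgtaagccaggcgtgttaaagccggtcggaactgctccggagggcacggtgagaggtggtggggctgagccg
KIF11: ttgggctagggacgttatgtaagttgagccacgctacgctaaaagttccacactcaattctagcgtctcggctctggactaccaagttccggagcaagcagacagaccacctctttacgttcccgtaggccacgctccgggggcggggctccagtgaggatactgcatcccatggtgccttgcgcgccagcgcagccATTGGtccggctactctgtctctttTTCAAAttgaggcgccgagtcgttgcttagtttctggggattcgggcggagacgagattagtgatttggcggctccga
CCNB1: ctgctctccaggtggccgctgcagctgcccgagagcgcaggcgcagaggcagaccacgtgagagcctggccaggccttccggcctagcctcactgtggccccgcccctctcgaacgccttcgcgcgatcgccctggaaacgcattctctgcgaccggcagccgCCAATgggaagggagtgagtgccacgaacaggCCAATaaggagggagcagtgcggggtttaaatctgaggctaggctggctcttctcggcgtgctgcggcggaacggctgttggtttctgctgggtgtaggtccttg

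The promoter table held 49 promoters for 41 of the 47 genes. TTTGAA, searched on both strands, occurred in 34 of these 49 promoters (69.4%), and in 15.2% of all 35116 promoters in the table. CCAAT, also on both strands, occurred in 36 of 49 (73.5%), and in 34.6% of all. Both motifs were present in 26 of 49 (53.1%), and in 5.90% of all promoters. The form TTCGAA was found in 2 of the 49 (4.08%), and in 1.45% of all. The matches were spread over the window but were most frequent near the start site. Of the mitotic promoters, 18.4% and 22.4% had a core in the 25-base bins that start 50 and 25 bases before the start site. Of all promoters, 1.43% and 1.17% did. The bin that starts at the start site held a core in 12.2% of the mitotic promoters, against 1.29% of all. In the bin that starts 75 bases before the start site, 42.9% of the mitotic promoters had a box, against 7.62% of all. The genes were listed by function and not by these motifs, and a match of letters is a description of sequence, not evidence of binding.

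**Figure D1:**
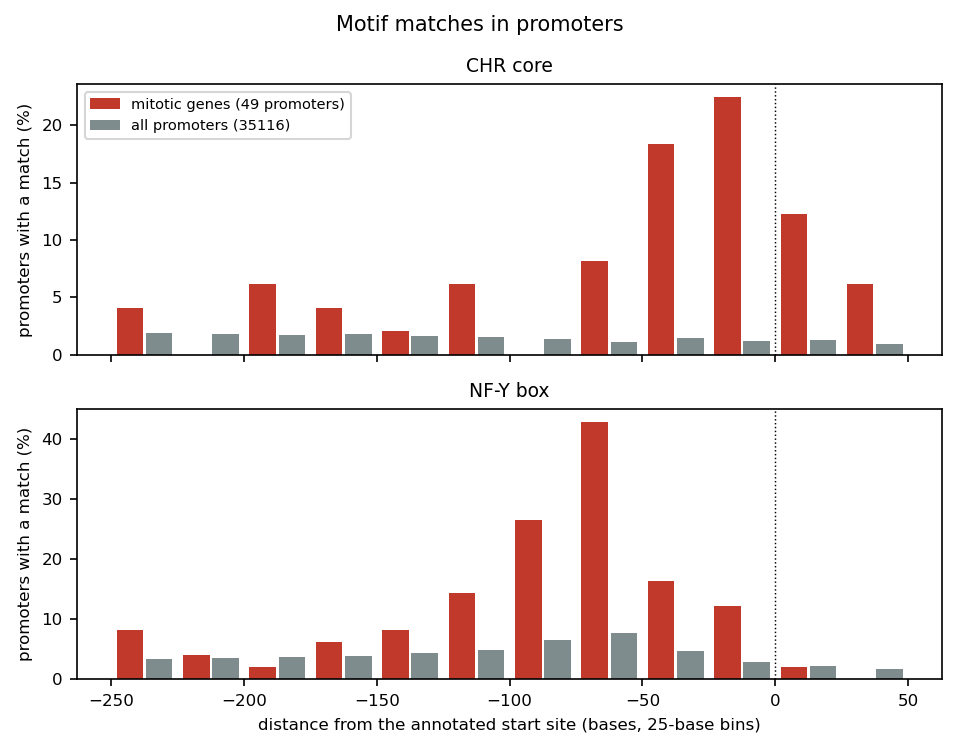
Share of promoters (percent, from 0) with a CHR core or an NF-Y box in each 25-base bin, against distance from the annotated start site in bases, for the 49 promoters of mitotic genes and all 35116 promoters in the table. Cores of the mitotic genes are most frequent in the last 50 bases before the start site and boxes just upstream of them. Both also occur in other bins, and 42.9% of mitotic promoters hold a box in the bin from -75.

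Replicate 3 of CsA at 48 h stood apart and is given separately throughout. Probe sets for the spiked hybridization controls had a median log2 value of 7.38 there, and of 9.89 to 11.42 on every other array. Spiked poly-A controls were dim on the first replicate of CsA at 48 h (median 4.13) and of control at 48 h (3.78), while the remaining arrays had 8.26 to 9.99. The limit of 4 was passed by 42.2% to 42.8% of probe sets per array, and no 2 arrays held identical values. Signal at the 5′ end of GAPDH minus that at its 3′ end was -0.14 on replicate 3 of CsA at 48 h, against -0.016 to 0.11 on every other array. For ACTB the same difference was -1.22 there and -1.33 on control 48 h replicate 1, against -0.98 to -0.73 elsewhere. The epithelial keratins KRT8 and KRT18 had log2 values of 13.79 or more on every array and KRT19 values of 9.85 to 11.87, while CDH1, the epithelial cadherin, was near background at 2.17 to 2.20. Likewise the proximal tubule markers LRP2, CUBN, SLC34A1, SLC5A2 and SLC22A6 stayed near background. Of the 9 proximal tubule markers with a probe set, 2 passed the limit (SLC4A4 and PDZK1), and none of the endothelial or leukocyte markers did.

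The mitotic genes were high at 12 h and much lower at 48 h in both arms. Averaged over the 46 genes, the log2 value was 11.41 ± 0.07 with CsA and 11.63 ± 0.08 in controls at 12 h (SD, n = 3 each). At 48 h it was 8.36 ± 1.33 with CsA and 9.10 ± 0.24 in controls. The arrays behind the wide SD gave 7.86, 7.34 and 9.87 for CsA replicates 1, 2 and 3, against 9.38, 8.93 and 9.00 for the controls. Replicates 1 and 2 of CsA at 48 h were thus below the 3 controls, and replicate 3 was above them. The median SD of a mitotic gene within the CsA 48 h group was 1.33, and 0.20 over all 11154 genes.

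**Figure D2:**
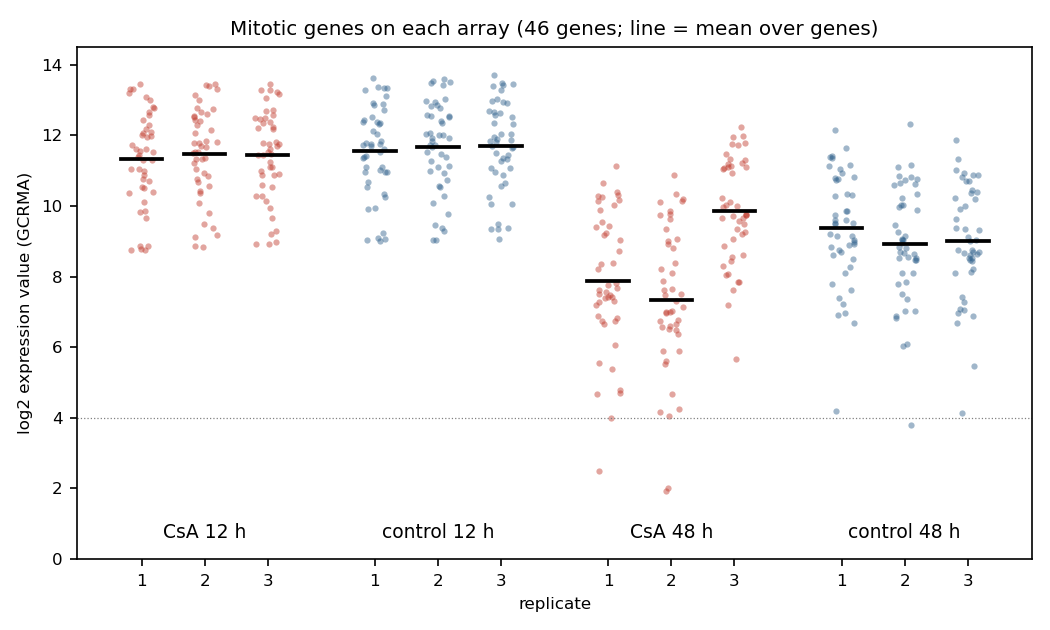
Log2 expression values of the 46 mitotic genes (points) on each of the 12 arrays, with their mean as a line; the dotted line marks the limit of 4. The 12 h arrays have means between 11.33 and 11.69, and among the 48 h arrays CsA replicates 1 and 2 (7.86 and 7.34) lie below the controls and replicate 3 (9.87) above them.

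Between 12 h and 48 h, 46 of 46 mitotic genes fell in the control cultures (limma with Benjamini-Hochberg over 11154 genes, adjusted p from 3.35e-05 to 0.000657), where 22.2% of all genes fell. The median log2 change was -2.55, with a range from -5.11 for NCAPH to -1.31 for SMC4, and the median over all genes was 0.03. In CsA cultures 46 of 46 also fell (adjusted p from 0.00108 to 0.0399), where 22.2% of all genes fell, with a median of -3.04. All 6 arrays at 48 h, CsA replicate 3 among them, lay below all 6 arrays at 12 h for 46 of 46 genes, and for 18.1% of all genes. Time in culture and growth of the cultures cannot be told apart in these comparisons.

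Against controls of the same time, no mitotic gene passed the test with CsA at 12 h or at 48 h when each comparison was fitted on all 6 of its own arrays. At 12 h the log2 change was negative for 46 of 46 genes but small, with a median of -0.22. At 48 h it was negative for 44 of 46, with a median of -0.73. Without CsA 48 h replicate 3, 17 of 46 genes were lower with CsA at 48 h, where 1.34% of all genes were lower, and the median was -1.48. That array was singled out with the values of these genes known, so the counts without it describe the remaining 2 CsA arrays and are not independent support for a direction.

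**Figure D3:**
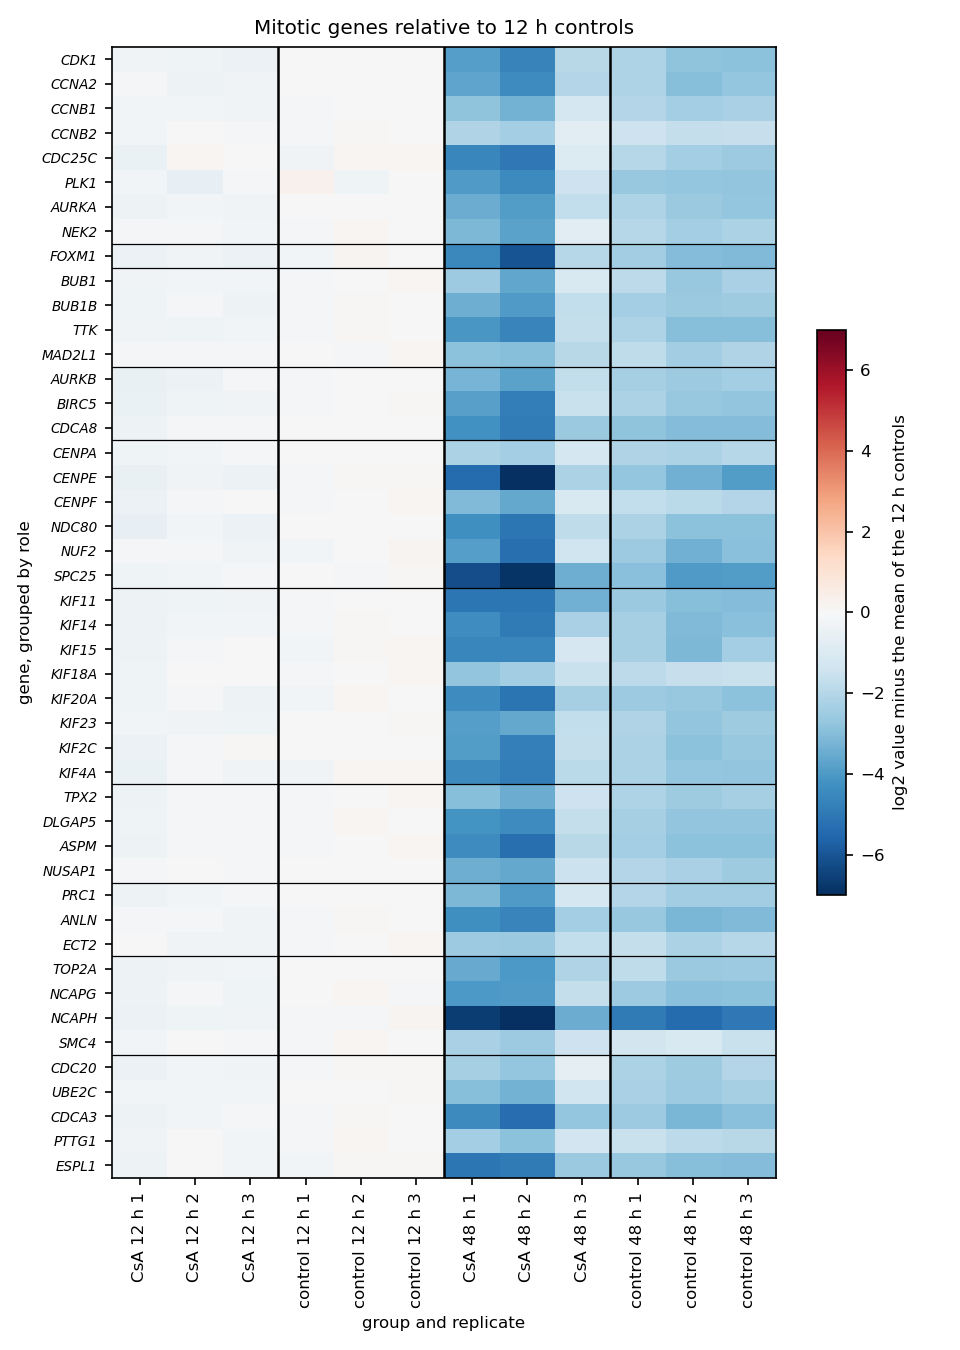
Log2 value of each of the 46 mitotic genes on each array minus the mean of the 12 h controls, with genes grouped by role (rows) and arrays by group (columns). The 12 h columns stay near 0, all 48 h columns are negative, and within the CsA 48 h group replicate 3 is above replicates 1 and 2 for 46 of 46 genes.

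CDK1, the kinase that drives entry into mitosis, had 12.65, 12.56 and 12.48 with CsA, against 12.86, 12.86 and 12.91 in controls at 12 h. At 48 h CDK1 had 9.04, 8.20 and 10.93 in CsA cultures and 10.73, 10.03 and 9.99 in control cultures. Thus for CDK1 the CsA arrays were below all controls at 12 h, while at 48 h replicates 1 and 2 were below the controls and replicate 3 above them. CDK1 fell by 2.62 over time in controls (SE 0.20, limma adjusted p = 0.000211). CCNB1, its cyclin partner at mitosis, had 12.76, 12.75 and 12.71 on the CsA arrays, against 12.90, 12.98 and 13.02 on the control arrays at 12 h. At 48 h CCNB1 had 10.14, 9.64 and 11.72 with CsA, against 10.94, 10.59 and 10.69 in controls. CCNB1 thus had this order: the CsA arrays were below all controls at 12 h, and at 48 h replicates 1 and 2 were below the controls and replicate 3 above them. PLK1, the polo-like kinase of centrosomes and kinetochores, had 9.86, 9.50 and 9.95 in CsA cultures and 10.33, 9.77 and 10.05 in control cultures at 12 h. At 48 h PLK1 had 6.06, 5.61 and 8.62 on the CsA arrays, against 7.40, 7.36 and 7.27 on the control arrays. For PLK1 the groups overlapped at 12 h, and at 48 h replicates 1 and 2 were below the controls and replicate 3 above them. AURKA, the kinase of spindle poles, had 12.57, 12.76 and 12.69 with CsA, against 12.89, 12.94 and 12.96 in controls at 12 h. At 48 h AURKA had 9.44, 9.00 and 11.21 in CsA cultures and 10.79, 10.34 and 10.23 in control cultures. Thus for AURKA the CsA arrays were below all controls at 12 h, while at 48 h replicates 1 and 2 were below the controls and replicate 3 above them. The other genes in this group of 8 were CCNA2 and CCNB2, both cyclins, CDC25C, the phosphatase that activates CDK1, and NEK2, a kinase of centrosome separation. Over time the 8 genes had a median log2 change of -2.90 with CsA and -2.39 in controls. For CsA against control at 48 h their median was -0.58, and -1.34 without replicate 3. In the fit without replicate 3, CDC25C (-2.47, SE 0.21, limma adjusted p = 0.0378) and PLK1 (-1.51, SE 0.16, 0.0402) were lower with CsA, and CDK1 had -1.63 (adjusted p = 0.0739).

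FOXM1, the forkhead factor that activates genes of G2 and mitosis, had 9.65, 9.80 and 9.66 on the CsA arrays, against 9.91, 10.27 and 10.04 on the control arrays at 12 h. At 48 h FOXM1 had 5.56, 4.04 and 8.07 with CsA, against 7.62, 7.02 and 6.96 in controls. FOXM1 thus had this order: the CsA arrays were below all controls at 12 h, and at 48 h replicates 1 and 2 were below the controls and replicate 3 above them. FOXM1 fell by 2.87 over time in controls (SE 0.20, limma adjusted p = 0.000151). For CsA against control at 48 h its log2 change was -1.31 (SE 0.95, adjusted p = 0.464), and -2.40 without replicate 3 (SE 0.47, adjusted p = 0.0685), which did not pass either.

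The 4 spindle checkpoint genes act at kinetochores that are not yet attached. BUB1, a checkpoint kinase, had 10.50, 10.57 and 10.59 in CsA cultures and 10.69, 10.72 and 10.89 in control cultures at 12 h. At 48 h BUB1 had 8.23, 7.14 and 9.72 on the CsA arrays, against 8.92, 8.09 and 8.48 on the control arrays. For BUB1 the CsA arrays were below all controls at 12 h, and at 48 h replicate 2 was below the controls, replicate 1 among them and replicate 3 above them. BUB1B, the BubR1 protein of the checkpoint complex, had 11.54, 11.68 and 11.47 with CsA, against 11.76, 11.91 and 11.83 in controls at 12 h. At 48 h BUB1B had 8.40, 7.86 and 10.12 in CsA cultures and 9.48, 9.25 and 9.32 in control cultures. Thus for BUB1B the CsA arrays were below all controls at 12 h, while at 48 h replicates 1 and 2 were below the controls and replicate 3 above them. MAD2L1, which binds CDC20 until chromosomes are attached, had 13.08, 12.99 and 13.06 on the CsA arrays, against 13.11, 13.03 and 13.27 on the control arrays at 12 h. At 48 h MAD2L1 had 10.27, 10.15 and 11.18 with CsA, against 11.36, 10.73 and 11.03 in controls. MAD2L1 thus had this order: the groups overlapped at 12 h, and at 48 h replicates 1 and 2 were below the controls and replicate 3 among them. Over time with CsA, MAD2L1 fell by 2.51 (SE 0.27, limma adjusted p = 0.00108). TTK, the kinase that starts checkpoint signalling, fell by 2.69 in controls over time (SE 0.23). Fitted on the 48 h arrays alone, none of the 4 passed for CsA against control, and all 4 log2 changes were negative with and without replicate 3. Without it 3 of the 4 had an unadjusted p under 0.05, as 25.3% of all genes did, and BUB1B came closest (-1.22, SE 0.18, limma adjusted p = 0.0503). With all 12 arrays in 1 fit and replicate 3 left out, 3 of the 4 were lower, where 13.0% of all genes were.

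The chromosomal passenger complex corrects faulty attachments and later guides cytokinesis. AURKB, its kinase, had 10.54, 10.66 and 10.92 in CsA cultures and 10.96, 11.10 and 11.09 in control cultures at 12 h. At 48 h AURKB had 7.77, 7.32 and 9.34 on the CsA arrays, against 8.71, 8.52 and 8.68 on the control arrays. For AURKB the CsA arrays were below all controls at 12 h, and at 48 h replicates 1 and 2 were below the controls and replicate 3 above them. BIRC5, or survivin, which docks the complex at the centromere, had 10.75, 10.93 and 10.99 with CsA, against 11.11, 11.28 and 11.28 in controls at 12 h. At 48 h BIRC5 had 7.42, 6.37 and 9.65 in CsA cultures and 8.99, 8.55 and 8.45 in control cultures. Thus for BIRC5 the CsA arrays were below all controls at 12 h, while at 48 h replicates 1 and 2 were below the controls and replicate 3 above them. CDCA8, or borealin, had 11.31, 11.52 and 11.60 on the CsA arrays, against 11.62, 11.65 and 11.70 on the control arrays at 12 h. At 48 h CDCA8 had 7.43, 6.76 and 9.06 with CsA, against 8.84, 8.63 and 8.63 in controls. CDCA8 thus had this order: the CsA arrays were below all controls at 12 h, and at 48 h replicates 1 and 2 were below the controls and replicate 3 above them. CDCA8 fell by 3.72 over time with CsA and by 2.96 in controls (SE 0.56 and 0.086, limma adjusted p = 0.00312 and 3.35e-05). Without replicate 3, AURKB (-1.09, SE 0.16, limma adjusted p = 0.0491) and CDCA8 (-1.60, SE 0.21, 0.0462) were lower with CsA at 48 h. BIRC5 had -1.77 in that fit (SE 0.34, adjusted p = 0.0681). The single probe set of INCENP read 3.54, 3.44 and 3.32 in CsA cultures and 5.07, 4.52 and 3.49 in control cultures at 12 h. At 48 h it lay between 1.90 and 2.30 on the 6 arrays, below the limit of 4.

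NDC80 and SPC25 belong to the complex that grips microtubules, within a group of 6 centromere and kinetochore genes that also held NUF2. NDC80, the subunit that names the complex, had 10.41, 10.76 and 10.55 on the CsA arrays, against 10.96, 10.98 and 10.97 on the control arrays at 12 h. At 48 h NDC80 had 6.67, 5.89 and 9.20 with CsA, against 8.75, 8.10 and 8.12 in controls. For NDC80 the CsA arrays were below all controls at 12 h, and at 48 h replicates 1 and 2 were below the controls and replicate 3 above them. SPC25, a subunit at its inner end, had 10.70, 10.83 and 10.86 in CsA cultures and 11.02, 10.92 and 11.08 in control cultures at 12 h. At 48 h SPC25 had 4.78, 4.17 and 7.61 on the CsA arrays, against 8.09, 7.03 and 7.07 on the control arrays. Thus for SPC25 the CsA arrays were below all controls at 12 h, while at 48 h replicates 1 and 2 were below the controls and replicate 3 among them. CENPF, a large protein of the outer kinetochore, had 12.09, 12.44 and 12.49 with CsA, against 12.35, 12.54 and 12.62 in controls at 12 h. At 48 h CENPF had 9.40, 8.91 and 11.46 in CsA cultures and 10.81, 10.64 and 10.44 in control cultures. CENPF thus had this order: the groups overlapped at 12 h, and at 48 h replicates 1 and 2 were below the controls and replicate 3 above them. CENPA, the histone variant that marks centromeres, had 8.74, 8.85 and 8.92 on the CsA arrays, against 9.07, 9.02 and 9.07 on the control arrays at 12 h. At 48 h CENPA had 6.84, 6.66 and 7.84 with CsA, against 6.96, 6.82 and 7.06 in controls. For CENPA the CsA arrays were below all controls at 12 h, and at 48 h replicate 2 was below the controls, replicate 1 among them and replicate 3 above them. CENPE, a kinesin of the kinetochore, had a CsA 48 h value of 1.92 on replicate 2, near background, so the size of its change is uncertain. SPC25 had the most negative log2 change of CsA against control at 48 h, -1.88 (SE 0.89, limma adjusted p = 0.278). Without replicate 3 it was lower with CsA, at -2.93 (SE 0.38, adjusted p = 0.0462), as was CENPF at -1.48 (SE 0.19, 0.0449). CENPA had -0.20 in that fit (SE 0.12, adjusted p = 0.358).

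KIF11, 1 of 8 spindle kinesins listed apart from CENPE, was the mitotic gene whose 3 CsA arrays all lay below the controls at 48 h, as 15.8% of all genes did. KIF11, the motor that pushes spindle poles apart, had 11.45, 11.49 and 11.53 in CsA cultures and 11.70, 11.83 and 11.82 in control cultures at 12 h. At 48 h KIF11 had 6.75, 6.73 and 8.44 on the CsA arrays, against 9.20, 8.80 and 8.76 on the control arrays. Thus for KIF11 the CsA arrays were below all controls at 12 h, while at 48 h all 3 CsA arrays were below the controls. Its log2 change at 48 h was -1.61 (SE 0.47), or 3.06-fold lower in level, and did not pass (limma adjusted p = 0.125). It passed without replicate 3 (-2.18, SE 0.16, adjusted p = 0.0344) and when all 12 arrays entered 1 fit (adjusted p = 0.0164), a fit in which 9.89% of all genes were lower.

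KIF20A, which carries the passenger complex to the spindle midzone, had 11.30, 11.51 and 11.24 with CsA, against 11.40, 11.72 and 11.64 in controls at 12 h. At 48 h KIF20A had 7.20, 6.48 and 9.25 in CsA cultures and 9.04, 8.94 and 8.71 in control cultures. KIF20A thus had this order: the groups overlapped at 12 h, and at 48 h replicates 1 and 2 were below the controls and replicate 3 above them. KIF23, a motor of the midzone, had 10.37, 10.35 and 10.29 on the CsA arrays, against 10.53, 10.54 and 10.66 on the control arrays at 12 h. At 48 h KIF23 had 6.74, 6.98 and 8.88 with CsA, against 8.49, 7.83 and 8.11 in controls. For KIF23 the CsA arrays were below all controls at 12 h, and at 48 h replicates 1 and 2 were below the controls and replicate 3 above them. KIF18A, which aligns chromosomes, had 9.81, 10.08 and 10.13 in CsA cultures and 9.95, 10.07 and 10.25 in control cultures at 12 h. At 48 h KIF18A had 7.31, 7.66 and 8.55 on the CsA arrays, against 8.27, 8.46 and 8.53 on the control arrays. Thus for KIF18A the groups overlapped at 12 h, while at 48 h replicates 1 and 2 were below the controls and replicate 3 above them. KIF18A fell by 2.17 over time with CsA and by 1.67 in controls (SE 0.32 and 0.11, limma adjusted p = 0.00279 and 0.000143). The remaining kinesins were KIF14, KIF15, KIF2C, a microtubule depolymerase, and KIF4A, a motor on chromosome arms. Without replicate 3, KIF15 (-1.95), KIF20A (-2.06) and KIF4A (-2.11) were lower with CsA at 48 h beside KIF11, with limma adjusted p from 0.0344 to 0.0462. The median of these 8 was -0.97 with all arrays and -1.90 without replicate 3.

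The 4 spindle microtubule genes were TPX2, an activator of AURKA, DLGAP5, which stabilizes kinetochore fibres, ASPM, a spindle pole protein, and NUSAP1, a microtubule bundler. All 4 fell over time, with a median of -3.00 with CsA and -2.47 in controls. Without replicate 3, ASPM (-2.15), DLGAP5 (-1.69) and NUSAP1 (-1.23) were lower with CsA at 48 h (limma adjusted p from 0.0402 to 0.0462), and TPX2 had -0.88 (adjusted p = 0.0727).

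Cytokinesis was represented by ANLN, ECT2 and PRC1. ANLN, the anillin scaffold of the contractile ring, had 13.30, 13.32 and 13.22 with CsA, against 13.33, 13.51 and 13.49 in controls at 12 h. At 48 h ANLN had 9.16, 8.81 and 11.06 in CsA cultures and 10.78, 10.22 and 10.38 in control cultures. ANLN thus had this order: the CsA arrays were below all controls at 12 h, and at 48 h replicates 1 and 2 were below the controls and replicate 3 above them. ECT2, the exchange factor that activates RhoA at the cell equator, had 12.81, 12.61 and 12.57 on the CsA arrays, against 12.72, 12.84 and 12.94 on the control arrays at 12 h. At 48 h ECT2 had 10.28, 10.21 and 11.10 with CsA, against 11.17, 10.63 and 10.83 in controls. For ECT2 the groups overlapped at 12 h, and at 48 h replicates 1 and 2 were below the controls and replicate 3 among them. ECT2 fell by 2.13 over time with CsA (SE 0.25, limma adjusted p = 0.00132). ANLN was lower with CsA at 48 h without replicate 3, at -1.47 (SE 0.20, adjusted p = 0.0462). ECT2 had -0.63 (SE 0.18, 0.112) and PRC1 -1.24 (SE 0.28, 0.0821) in that fit, and neither passed.

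Chromosome condensation held both extremes of the change over time in controls, NCAPH and SMC4. NCAPH, the kleisin subunit of condensin I, had 8.75, 8.86 and 8.93 in CsA cultures and 9.09, 9.04 and 9.34 in control cultures at 12 h. At 48 h NCAPH had 2.49, 2.03 and 5.68 on the CsA arrays, against 4.21, 3.79 and 4.13 on the control arrays. Thus for NCAPH the CsA arrays were below all controls at 12 h, while at 48 h replicates 1 and 2 were below the controls and replicate 3 above them. NCAPH fell by 5.11 in controls over time (SE 0.14, limma adjusted p = 3.35e-05), but 3 of its 48 h values lay under 4, near background, so the size is uncertain. SMC4, the core ATPase of condensin, had 13.20, 13.39 and 13.27 with CsA, against 13.29, 13.54 and 13.41 in controls at 12 h. At 48 h SMC4 had 11.12, 10.88 and 11.99 in CsA cultures and 12.14, 12.33 and 11.86 in control cultures. SMC4 thus had this order: the groups overlapped at 12 h, and at 48 h replicates 1 and 2 were below the controls and replicate 3 among them. SMC4 fell by 1.96 over time with CsA and by 1.31 in controls (SE 0.29 and 0.14, limma adjusted p = 0.00282 and 0.000657). For CsA against control at 48 h its log2 change was -0.78 (SE 0.30, adjusted p = 0.203). TOP2A, the topoisomerase that untangles sister chromatids, had 13.01, 13.13 and 13.17 on the CsA arrays, against 13.34, 13.44 and 13.39 on the control arrays at 12 h. At 48 h TOP2A had 9.88, 9.35 and 11.29 with CsA, against 11.63, 10.77 and 10.87 in controls. For TOP2A the CsA arrays were below all controls at 12 h, and at 48 h replicates 1 and 2 were below the controls and replicate 3 among them. NCAPG, another subunit of condensin I, and NCAPH were lower with CsA at 48 h without replicate 3, at -1.20 and -1.79 (limma adjusted p = 0.0449 and 0.0402).

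Anaphase begins when securin and the cyclins are destroyed, and 5 genes stood for this step. CDC20, an activator of the anaphase-promoting complex, had 12.07, 12.30 and 12.21 in CsA cultures and 12.32, 12.53 and 12.57 in control cultures at 12 h. At 48 h CDC20 had 10.17, 9.76 and 11.78 on the CsA arrays, against 10.28, 9.98 and 10.40 on the control arrays. Thus for CDC20 the CsA arrays were below all controls at 12 h, while at 48 h replicate 2 was below the controls, replicate 1 among them and replicate 3 above them. The log2 change of CDC20 at 48 h was 0.35 (SE 0.50, limma adjusted p = 0.73), and -0.26 without replicate 3. PTTG1, or securin, the inhibitor of separase, had 12.43, 12.65 and 12.47 with CsA, against 12.52, 12.78 and 12.69 in controls at 12 h. At 48 h PTTG1 had 10.31, 9.78 and 11.34 in CsA cultures and 11.13, 10.81 and 10.71 in control cultures. PTTG1 thus had this order: the groups overlapped at 12 h, and at 48 h replicates 1 and 2 were below the controls and replicate 3 above them. ESPL1, separase itself, had 10.12, 10.41 and 10.27 on the CsA arrays, against 10.25, 10.56 and 10.56 on the control arrays at 12 h. At 48 h ESPL1 had 5.39, 5.52 and 7.85 with CsA, against 7.80, 7.50 and 7.43 in controls. For ESPL1 the groups overlapped at 12 h, and at 48 h replicates 1 and 2 were below the controls and replicate 3 above them. UBE2C, the conjugating enzyme of the anaphase-promoting complex, had 13.44, 13.43 and 13.47 in CsA cultures and 13.63, 13.59 and 13.70 in control cultures at 12 h. At 48 h UBE2C had 10.64, 10.33 and 12.23 on the CsA arrays, against 11.40, 11.10 and 11.32 on the control arrays. Thus for UBE2C the CsA arrays were below all controls at 12 h, while at 48 h replicates 1 and 2 were below the controls and replicate 3 above them. CDCA3, which takes part in the destruction of WEE1, had 11.96, 12.08 and 12.18 with CsA, against 12.13, 12.40 and 12.35 in controls at 12 h. At 48 h CDCA3 had 7.82, 6.96 and 9.58 in CsA cultures and 9.74, 9.07 and 9.38 in control cultures. CDCA3 thus had this order: the groups overlapped at 12 h, and at 48 h replicates 1 and 2 were below the controls and replicate 3 among them. ESPL1 was lower with CsA at 48 h without replicate 3, at -2.12 (SE 0.14, limma adjusted p = 0.0344). In that fit CDCA3 had -2.01 (adjusted p = 0.0521), PTTG1 -0.84 (0.0944) and UBE2C -0.79 (0.0655), and none of the 3 passed.

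**Figure D4:**
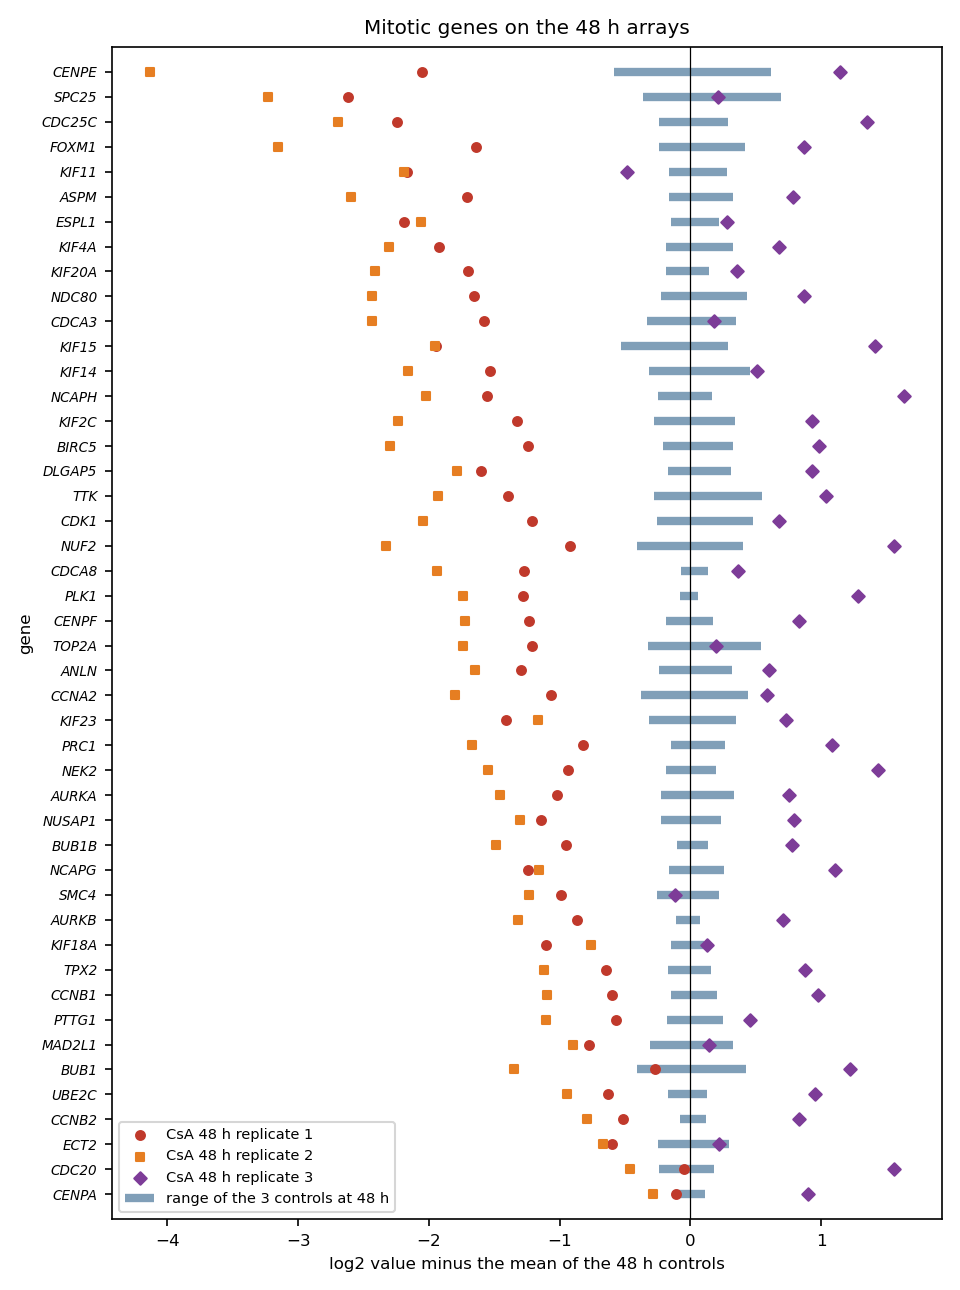
For each mitotic gene, the log2 value of the 3 CsA arrays at 48 h minus the mean of the 48 h controls (symbols) and the range of the 3 controls (bars), ordered by the mean of CsA replicates 1 and 2. Replicates 1 and 2 lie left of the control range for 43 of 46 genes and replicate 3 right of it for 39 of 46.

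Taken gene by gene, replicate 3 of CsA at 48 h was the highest of the 3 CsA arrays for 46 of 46 mitotic genes, and for 52.8% of all genes. It exceeded all 48 h controls for 39 of 46 genes (42.6% of all genes), lay among them for 6 (26.0%) and below them for 1, KIF11 (31.5%). These positions are those of the probe set that stood for each gene, and for some genes another probe set differed. Such a probe set had replicate 3 above all controls for TOP2A, SMC4, CDCA3 and MAD2L1. It lay among the controls for AURKA, BUB1, KIF2C and NUSAP1, and below them for ASPM. Dim probe sets of CDK1, AURKB and BIRC5, near background at 48 h, also had replicate 3 among the controls. Replicates 1 and 2 were both below all controls for 43 of 46 (27.0% of all genes), the exceptions being BUB1, CDC20 and CENPA. The 2 arrangements met in 36 of 46 mitotic genes and in 5.90% of all genes. The distance from the mean of the 48 h controls had a median over the genes of 0.81 for replicate 3 and -1.48 for the mean of replicates 1 and 2. Matched by replicate number, CsA against control at 48 h gave a median log2 change of -1.51 for pair 1, -1.49 for pair 2 and 0.92 for pair 3, and over all genes -0.044, -0.049 and 0.067.

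The position of replicate 3 was also counted for the 186 genes that passed at 48 h without it. Of the 17 mitotic genes among them, replicate 3 lay below all controls in 1 and above them in 15. Of 13 further mitotic genes, it lay below all controls in 2 and above them in 10. Of the 120 lower genes on neither mitotic list, it lay below all controls in 97 and above them in 16. Of the 36 higher genes, it lay above all controls in 33. Over all 11154 genes, it lay below all controls in 31.5% and above them in 42.6%. The counted genes were selected against the same controls that place replicate 3, so the share over all genes is not a like comparison. The low hybridization signal and the low 5′ to 3′ differences were recorded on the same array, and their part in the mitotic values was not tested. Summed levels of 3 of 7 marker lists did not overlap between CsA and control at 48 h. For single genes, all CsA arrays lay below all controls at that time in 15.8% of all genes. The 5 fibroblast markers, of which 4 were past the limit, had summed levels of 9.26 to 10.01 with CsA, against 10.42 to 10.80 in controls, and PDGFRA stayed near background. The list did not move as one: at 48 h COL1A1, LUM and DCN had lower means with CsA. PDGFRB had a higher one, 5.14 with CsA against 4.93 in controls. The 9 markers of proximal tubule, the tissue HK-2 comes from, had 2 past the limit and sums of 10.91 to 11.60 with CsA, against 12.19 to 12.84 in controls. The 3 podocyte markers, of which PODXL was past the limit and NPHS1 and WT1 were near background, had sums of 10.54 to 10.95 with CsA, against 10.15 to 10.30 in controls. These sums are log2 of the added linear values, none of these markers passed the test, and their part in the mitotic values was not tested.

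The statistics at 48 h followed that array. With all arrays the lowest adjusted p among the 46 genes was 0.125, for KIF11, and none was called, where 0.825% of all genes were called lower and 0.278% higher. At an unadjusted p under 0.05 there were 2 of 46, KIF11 and SMC4, and 21.8% of all genes. Without replicate 3 the 17 genes had log2 changes from -2.93 (SPC25) to -1.09 (AURKB) and adjusted p from 0.0344 to 0.0491, on 2 CsA and 3 control arrays, and 43 of 46 had an unadjusted p under 0.05, as 25.3% of all genes did. The adjusted values of the 17 lay close to the threshold, and when each probe set was tested on its own 0 of 77 mitotic probe sets passed without replicate 3 (lowest adjusted p = 0.0537, for ESPL1), where 0.0242% of 20625 probe sets were lower. When all 12 arrays set 1 shared spread and replicate 3 was left out, 43 of 46 were lower, where 13.0% of all genes were. With limma array weights, which gave replicate 3 a weight of 0.214 and CsA replicate 1 of 4.17, 21 of 46 were lower, where 12.2% of all genes were. Leaving out CsA replicate 2 instead gave a median of -0.22, leaving out CsA replicate 1 gave -0.41, and leaving out replicate 1 of CsA and of control, with their dim poly-A controls, gave -0.28, each with 0 mitotic genes and 0% of all genes lower.

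At 12 h the log2 changes ran from -0.40 for NDC80 to -0.084 for KIF18A, and none passed. The CsA arrays lay below all controls for 24 of 46 genes, where 6.51% of all genes did so. By replicate number the change was negative for 44, 45 and 45 of 46 genes in pairs 1, 2 and 3, and for 52.1%, 51.3% and 51.4% of all genes. The smallest p-values belonged to CDK1 (-0.31, SE 0.065), KIF11 (-0.29, SE 0.064), TOP2A (-0.28, SE 0.067), NDC80 (-0.40, SE 0.10), CCNB1 (-0.23, SE 0.058) and KIF23 (-0.24, SE 0.063). Their adjusted p by limma was 0.483 to 0.492, and 23 of 46 genes had an unadjusted p under 0.05, as 7.68% of all genes did. The lowest adjusted p over all genes was 0.405, and 0% of genes were called in either direction. With the replicate number as a block, 35 of 46 mitotic genes and 15.3% of all genes had an unadjusted p under 0.05, and 0 mitotic genes passed (lowest adjusted p = 0.173, for BIRC5). NDC80 had the most negative value, a level 1.32-fold lower, and KIF18A the least (-0.084, SE 0.12).

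Over time, the 8 spindle kinesins and the centromere and kinetochore genes had medians of -3.37 and -3.33 with CsA, and -2.59 and -2.79 in controls. The change with CsA ran from -5.45 for NCAPH to -1.62 for CCNB2. In controls AURKB fell by 2.41 (SE 0.085), BUB1B by 2.48 (SE 0.091), CENPA by 2.11 (SE 0.085) and UBE2C by 2.37 (SE 0.10), with limma adjusted p from 3.35e-05 to 5.03e-05. CENPA was thus 4.31-fold and UBE2C 5.17-fold lower at 48 h. Without CsA 48 h replicate 3 the median over time with CsA was -3.88, and 46 of 46 genes fell, where 27.6% of all genes did. The number that fell with CsA was 29 without CsA 48 h replicate 1 (17.3% of all genes) and 30 without CsA 12 h replicate 3 (16.6%), and the change was negative for 46 of 46 in both.

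**Figure D5:**
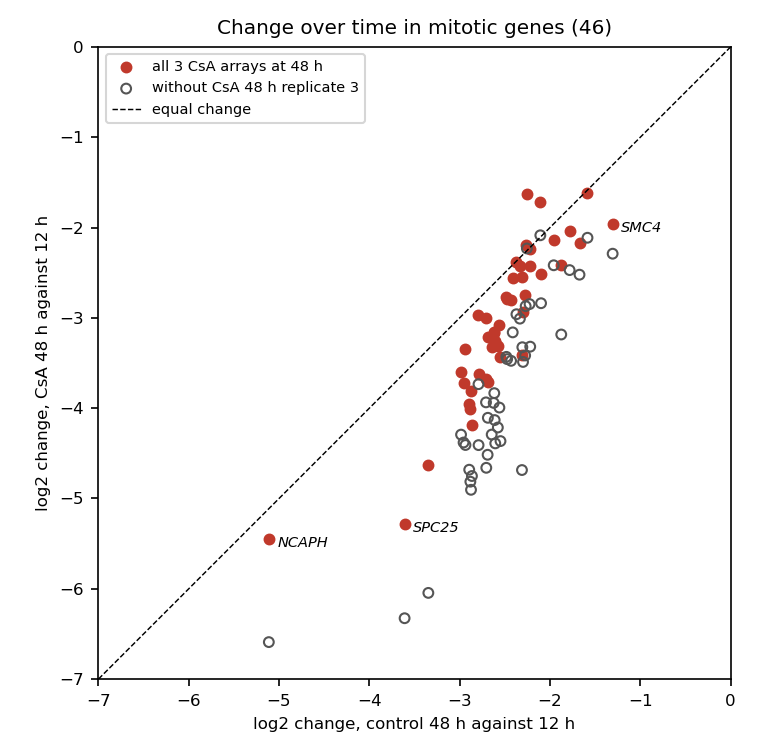
Log2 change from 12 h to 48 h in CsA cultures (vertical) against control cultures (horizontal) for the 46 mitotic genes, with all CsA arrays (filled) and without CsA 48 h replicate 3 (open); the dashed line marks equal change. All points are negative on both axes, and the open points move further below the line, with NCAPH, SPC25 and SMC4 labelled.

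The effect of CsA at 48 h minus that at 12 h, tested in 1 fit of all 12 arrays, was negative for 43 of 46 genes with a median of -0.52, and 0 of 46 passed, where 0.897% of all genes were called lower and 0.224% higher. At an unadjusted p under 0.05, which 17.4% of all genes had, there was 1 gene, KIF11 (-1.32, SE 0.52, limma adjusted p = 0.221). Next by p were SMC4 (-0.65, SE 0.34), SPC25 (-1.67, SE 0.98), ESPL1 (-1.13, SE 0.72), CDCA3 (-1.06, SE 0.70) and KIF18A (-0.50, SE 0.36). Without CsA 48 h replicate 3 the difference passed for 27 of 46 genes, where 3.32% of all genes were called lower, with a median of -1.27. The 8 spindle kinesins were all among the 27, and CENPE was not (-2.70, limma adjusted p = 0.0617). Array weights called 17 of 46, where 7.64% of all genes were lower. Without CsA 48 h replicate 2 the median was -0.02, and with replicate 1 of CsA and control at 48 h left out it was -0.11, with 0 mitotic genes and 2.05% and 0.0179% of all genes called lower.

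The 77 mitotic probe sets were also tested each on its own. Over time 77 of 77 fell with CsA and 76 of 77 in controls, where 20.0% and 18.8% of all probe sets fell. The exception was a dim probe set of AURKA (-0.56, limma adjusted p = 0.118), whose other probe sets changed by -2.54 and -2.47. Some of the 77 passed the limit only through the 12 h arrays, which favoured a fall over time. Among them was a probe set each of AURKB, BIRC5, CENPF and CDK1 with all 48 h values under 4. Probe sets of this kind add no separate support for a fall. For CsA against control at 48 h 72 of 77 changes were negative, and at 12 h 75 of 77. Probe sets of 1 gene differed in size: for BUB1 the 2 probe sets past the limit gave -0.13 and -1.09 at 48 h, and for CENPF the 3 gave 0.046, -0.71 and -0.93. The CENPF probe set with 0.046 had 48 h values of 2.65 to 3.21, near background, so it could not show a change with CsA at that time. Probe sets whose names end in x_at stood for CENPA, FOXM1 and PTTG1, and such probe sets can share sequence with related genes.

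Other genes of the same processes were read from lists of related genes. Of 56 measured among 57 further mitotic genes, 54 fell over time with CsA and 56 in controls, where 22.2% of all genes fell in each arm. Their median change was -0.51 for CsA against control at 48 h, with 0 called, and 13 were lower without replicate 3, where 1.34% of all genes were. HJURP, the loader of CENPA, fell by 3.19 in controls (limma adjusted p = 3.35e-05), KIF20B, a kinesin, by 2.40 and CDCA2, a phosphatase regulator, by 3.08. With CsA over time the lowest p-values were those of KIFC1, a minus-end kinesin, which fell by 3.97, ZWINT, a kinetochore protein, by 3.18 and SKA3, part of the kinetochore coupler, by 3.02.

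Lists of genes that act in mitosis but also outside it gave mixed counts, to be read against 22.2% of all genes falling in each arm, and 23.6% rising with CsA and 25.2% in controls. Of 12 cohesin genes, 7 fell and 2 rose with CsA, and 5 fell and 2 rose in controls over time. ESCO2, an acetyltransferase of S phase, was among those that fell in both arms, but its 48 h values of 2.91 to 3.01 lay near background, so the size of its change is not given. Of 16 genes of the anaphase-promoting complex and its regulators, 5 fell and 3 rose in each arm. FBXO5, its inhibitor, fell by 1.88 with CsA and by 1.65 in controls. Of 20 tubulins, dynein subunits and constitutive spindle proteins, 11 fell and 1 rose in each arm, with TUBG1, a gamma-tubulin, falling by 1.46 with CsA and by 1.85 in controls. Of 13 phosphatases, kinases and their regulators in mitotic entry, 6 fell in each arm. BORA, on this list, was also among the further mitotic genes. MASTL, the Greatwall kinase, fell by 3.13 with CsA and by 2.79 in controls. None of these 4 lists had a gene called for CsA against control at 48 h or at 12 h, and at an unadjusted p under 0.05 they held 9 of 61 genes (14.8%) at 48 h and 5 of 61 (8.20%) at 12 h, where 21.8% and 7.68% of all genes passed the same threshold.

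Of 19 genes of the DREAM complex, MYBL2 and the E2F family, 8 fell and 2 rose with CsA (22.2% and 23.6% of all genes), and 7 fell and 2 rose in controls over time (22.2% and 25.2%). MYBL2, the factor that joins the MuvB core before mitosis, fell by 2.55 in controls (limma adjusted p = 0.000244). E2F8, an atypical E2F that represses transcription, had 8.22, 8.73 and 8.55 on the CsA arrays, against 8.78, 9.05 and 8.97 on the control arrays at 12 h. At 48 h E2F8 had 5.28, 5.40 and 4.86 with CsA, against 7.55, 7.39 and 7.29 in controls. E2F8 had all 3 CsA arrays at 48 h below the controls, and replicate 3 was the lowest of them. It was lower with CsA at 48 h by 2.23 on the log2 scale (SE 0.17, limma adjusted p = 0.0393). Without CsA 48 h replicate 3 it also passed (-2.07, limma adjusted p = 0.0286). When either of CsA 48 h replicates 1 and 2 was left out, 0 of 11154 genes passed, so E2F8 did not. The same held when either of control 48 h replicates 1 and 2 was left out.

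The mean of the mitotic genes gave a profile against which single genes were compared over the 12 arrays, most of whose variation is the difference between times. By Pearson correlation, given as a description, AURKA was the mitotic gene most like the mean of the others (0.999 over 12 arrays, 0.995 over the 6 arrays at 48 h). CDC20 (0.952 and 0.729) and CENPA (0.963 and 0.761) were the least like it. Outside the set the most alike were PBK, CENPU, CCSAP, SHCBP1, PIMREG, GPSM2, PLK4, RFC3, KIF18B and HMMR, with correlations from 0.998 for PBK to 0.996 for HMMR.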

How the data were processed

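Total RNA of 12 HK-2 cultures was hybridized to Affymetrix arrays, and the deposited log2 values were made with GCRMA, per the submitters' processing notes, its version and settings not being given in the sources used here. In its usual form GCRMA subtracts background by probe sequence and sets all arrays to 1 distribution, so changes are relative to the other probe sets, and the number of arrays limits the precision. Probe sets took their gene from the platform annotation: 41097 of 54675 had 1 symbol, 1801 several and 11777 none. Probe sets with several symbols, among them 1 that includes CENPA, were left out.

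Probe sets above log2 4 on at least 3 arrays were kept (20625), and the one with the highest mean stood for its gene (11154 genes). Groups were compared with limma 3.58.1 in R 4.3.3, each comparison fitted on its 2 groups, and the difference between times on all 12 arrays. Adjustment was by Benjamini-Hochberg across the 11154 genes, with a threshold of 0.05. Fits were tested on simulated data. Members and lists were chosen with earlier results of these data known. Values on every array are given for a list of 17 members (FOXM1, CCNB1, CDK1, PLK1, AURKA, AURKB, BIRC5, INCENP, BUB1, CENPF, NDC80, KIF11, KIF20A, TOP2A, ANLN, CDC20, PTTG1) and for the 6 members with the smallest p in each comparison. From each related list up to 3 genes past the threshold with the smallest p per comparison could be named. The labels call the replicates biological without saying what separated them, so p-values measure the spread between these samples. Same-numbered arrays deviated together at 12 h (r from 0.467 to 0.577 between CsA and control) and between the 2 control groups (0.278 to 0.325). Between the CsA and control groups at 48 h this held for replicate 2 (0.300) but not for replicates 1 and 3 (0.096 and -0.051). Between the CsA groups r was -0.0058 to 0.222. Alternatives changed the filter, the probe sets, the scaling, the fit, the weights, the replicate block and the arrays kept. Promoters came from RefSeq (GRCh38.p14).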

Additional observations from a re-analysis of the deposited data

Results flagged for a closer look

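E2F8, an atypical E2F repressor on the list of DREAM, MYBL2 and E2F regulators, had an effect of CsA that differed between 48 h and 12 h. The effect at 48 h minus that at 12 h was -1.80 on the log2 scale (SE 0.23, limma adjusted p = 0.0163). Without CsA 48 h replicate 3 it also passed (-1.64, limma adjusted p = 0.00756). With CsA 12 h replicate 3 or control 12 h replicate 1 or 3 left out, 0 of 11154 genes passed, so E2F8 did not. At 48 h E2F8 had 5.28, 5.40 and 4.86 with CsA, against 7.55, 7.39 and 7.29 in controls, and at 12 h 8.22, 8.73 and 8.55 with CsA, against 8.78, 9.05 and 8.97 in controls. It was below all controls on 3 of 3 CsA arrays at both times.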

How the results depend on the processing

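In control cultures 46 of 46 mitotic genes fell over time under each alternative run on the genes, or 47 of 47 with no filter. Of all genes, 2193 of 19775 fell with no filter, and 1949 to 2678 in the other fits. No alternative called a mitotic gene for CsA at 12 h. The replicate block changed no call (0 at 48 h, 0 at 12 h, 0 for the difference, 46 and 46 over time). Mitotic genes called lower with CsA at 48 h numbered 0 with all arrays, where 0.825% of all genes were. They numbered 1 with all 12 arrays in 1 fit (9.89% of all genes) and 21 with array weights (12.2%). With 1 array left out they numbered 0 to 17 (0 to 1.34% of all genes). All 12 arrays in 1 fit without CsA 48 h replicate 3, a choice made after seeing the data, gave 43 (13.0%). Over time with CsA, 27 of 47 fell with no filter, where more genes were tested and 1997 of all 19775 fell. Without both 48 h replicate 1 arrays 29 fell, and 1934 of all 11154 genes. With 1 array left out 29 to 46 fell, and 1795 to 3077 of all 11154 genes. For the difference 17 passed with array weights, where 7.64% of all genes were lower. With 1 array left out 0 to 27 passed, where 0 to 370 of all 11154 genes were lower. With 1 array left out, medians ran from -1.48 to -0.22 for CsA at 48 h, -0.26 to -0.18 at 12 h, -3.88 to -2.52 over time with CsA, -2.72 to -2.43 over time in controls and -1.27 to -0.020 for the difference.

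Changes of sign were found for single genes that had not passed. At 48 h array weights gave -0.078 for CDC20 and -0.11 for CENPA, and leaving out both replicate 1 arrays gave 0.040 for CCNB1, 0.15 for BUB1 and 0.070 for UBE2C. With 1 array left out the 48 h change ran from -0.85 to 0.19 for CCNB1, -0.81 to 0.48 for BUB1, -0.26 to 0.75 for CDC20, -1.79 to 0.039 for NCAPH, -0.20 to 0.40 for CENPA and -0.79 to 0.16 for UBE2C, and the 12 h change from -0.15 to 0.013 for KIF18A. For the difference, the mean of all probe sets gave 0.21 for AURKB and -0.45 for BUB1, array weights -0.18 for BUB1, quantile normalization 0.019 for CCNB1 and 0.037 for UBE2C, and median centring 0.0046 for CCNB1 and 0.0081 for UBE2C. Without both replicate 1 arrays it was 0.27 for CCNB1, 0.080 for PLK1, 0.072 for AURKA, 0.073 for AURKB, 0.20 for KIF23, 0.20 for NCAPH, 0.27 for UBE2C and 0.096 for ECT2. With 1 array left out the difference ran from -0.98 to 0.12 for AURKA, -0.75 to 0.26 for AURKB, -1.43 to 0.20 for BIRC5, -0.60 to 0.69 for BUB1, -0.95 to 0.18 for BUB1B, -0.62 to 0.42 for CCNB1, -1.32 to 0.045 for CDK1, -1.05 to 0.027 for KIF23, -1.48 to 0.35 for NCAPH, -1.65 to 0.0068 for NDC80, -1.23 to 0.28 for PLK1, -0.69 to 0.090 for PTTG1 and -0.59 to 0.36 for UBE2C. The cause of these changes was not tested. Values under 4 limit the size of change for NCAPH, CENPE and ESCO2, and for the dim probe sets of AURKB, BIRC5, CDK1 and CENPF tested on their own.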
